A study of Homo sapiens with 6 samples.

Results

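The genes described here act on heme and iron in the cell: the heme oxygenases HMOX1 and HMOX2, the biliverdin reductases BLVRA and BLVRB, the ferritin chains FTL and FTH1, the ferritin receptor NCOA4, the transferrin receptor TFRC, the iron exporter SLC40A1 and the heme exporter FLVCR1. They were taken by gene symbol, 10 of the 27451 gene rows of the table. Poly-A RNA was sequenced from the established breast cancer line MDA-MB-231 (human), given 2 µM of H182 for 2 h (3 libraries) or its vehicle DMSO (3 libraries). The treatment label of the DMSO libraries gives no time. The series title names azetidine-based inhibitors of the transcription factor STAT3. Both groups are the same line with no genetic change named in the labels, and H182 was used at a single dose and a single time. Whether replicates were grown separately is not in the labels, so the p-values cover only variation from library to library, some of which may be technical.

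Heme oxygenases open the heme ring and release carbon monoxide, ferrous iron and biliverdin, which biliverdin reductases turn into bilirubin. HMOX1 is the inducible form, known as a target of the oxidant-responsive factor NRF2 and of its heme-binding antagonist BACH1, and HMOX2 is the constitutive form. Released iron is stored in ferritin, a shell of heavy and light chains, is set free again when NCOA4 carries ferritin to the lysosome, and leaves the cell through ferroportin, the product of SLC40A1. Transferrin receptor 1 brings iron in. Several of these transcripts carry an iron-responsive element, a hairpin bound by the iron regulatory proteins when iron is scarce. In the 5′ untranslated region the element restrains translation, and in the 3′ untranslated region of TFRC it protects the mRNA from decay.

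The hairpins are shown because FTL and TFRC, which were called in opposite directions, hold them in different untranslated regions, with that of SLC40A1, which was not called, beside them. Transcripts of protein-coding genes in GENCODE 29 (GRCh38) were searched on the sense strand for the letters CNNNNNCAGTGN, a bulged C and a hairpin loop of 6 bases, with all 5 bases between them able to pair with the 5 bases after the loop (G with T allowed). In 5′ untranslated regions 36 of 19050 genes held such a match (0.189%), among them FTL, FTH1 and SLC40A1. In 3′ untranslated regions 132 of 19576 genes did (0.674%), and TFRC held 4 such matches. No 5-pair match was found in the untranslated regions of the other 6 genes. The sites are written as DNA, 5′ to 3′ on the transcript strand, with the bulged C and the loop in capitals.
FTL, 5′ untranslated region, chr19:48965332-48965361, plus strand: tgtctcttgCttcaaCAGTGTttggacgga
SLC40A1, 5′ untranslated region, chr2:189580663-189580692, minus strand: ttccaacttCagctaCAGTGTtagctaagt
TFRC, 3′ untranslated region, chr3:196050981-196051010, minus strand: tataattatCggaagCAGTGCcttccataa
TFRC, 3′ untranslated region, chr3:196050577-196050606, minus strand: acacattatCgggagCAGTGTcttccataa
TFRC, 3′ untranslated region, chr3:196050512-196050541, minus strand: tgtctgtatCggagaCAGTGAtctccatat
TFRC, 3′ untranslated region, chr3:196050465-196050494, minus strand: agtaattatCgggaaCAGTGTttcccataa

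Values are TPM, reads divided by transcript length and scaled to a library sum of 1000000, so levels can be compared between genes but the number of reads behind them is unknown. Between 12230 and 12353 genes reached 1 TPM per library, and libraries correlated at r = 0.9928 to 0.9942 within groups and 0.9787 to 0.9806 between them across genes, which are not independent replicates. Marker genes matched the labelled line: VIM and CD44 together stood at 5130 to 5239 TPM in DMSO and 4387 to 4677 TPM in H182, and ESR1, PGR and CDH1 together at no more than 0.33 TPM. In TPM, VIM (-0.17, limma adjusted p = 0.00721) and CD44 (-0.23, limma adjusted p = 0.00137) were themselves called lower on the log2 scale. Lists of cell types rich in these pathways were near 0. The 6 erythroid markers summed to 0.18 to 0.58 TPM in DMSO and 0.42 to 1.27 TPM in H182, with HBB at 0. The 6 macrophage markers summed to 3.09 to 4.26 and 3.07 to 3.98 TPM, with CD163 at 0, and the 4 hepatocyte markers to 0.68 to 1.59 and 0.95 to 1.57 TPM, with TTR at 0.

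H182 was compared with DMSO to ask which of these transcripts had changed by 2 h. In TPM, 3 of the 10 genes rose (HMOX1, FTL and FTH1), 2 fell (TFRC and NCOA4) and 5 did not pass. The test was limma on log2(TPM + 1) across the 12294 genes whose mean reached 1 TPM, with Benjamini-Hochberg adjustment and a threshold of 0.05, and all 10 genes met that filter. Over all tested genes 5.30% were called higher and 18.7% lower, 24.0% in all. Groups did not overlap in 6 of the 10 genes, 3 higher and 3 lower, where 41.4% of tested genes had no overlap, 8.67% being higher and 32.7% lower. The median change of the 10 genes was 0.03 and that of all tested genes -0.09 on the log2 scale. TPM values are shares of a library. The change after median-of-ratios scaling, which sets the typical gene to no change, is given beside many small changes, though not all. With that scaling the median of all tested genes was 0.00, with 7.88% called higher and 6.78% lower. The calls of HMOX1, FTL, FTH1 and TFRC held there, and that of NCOA4 did not.

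**Figure D1:**
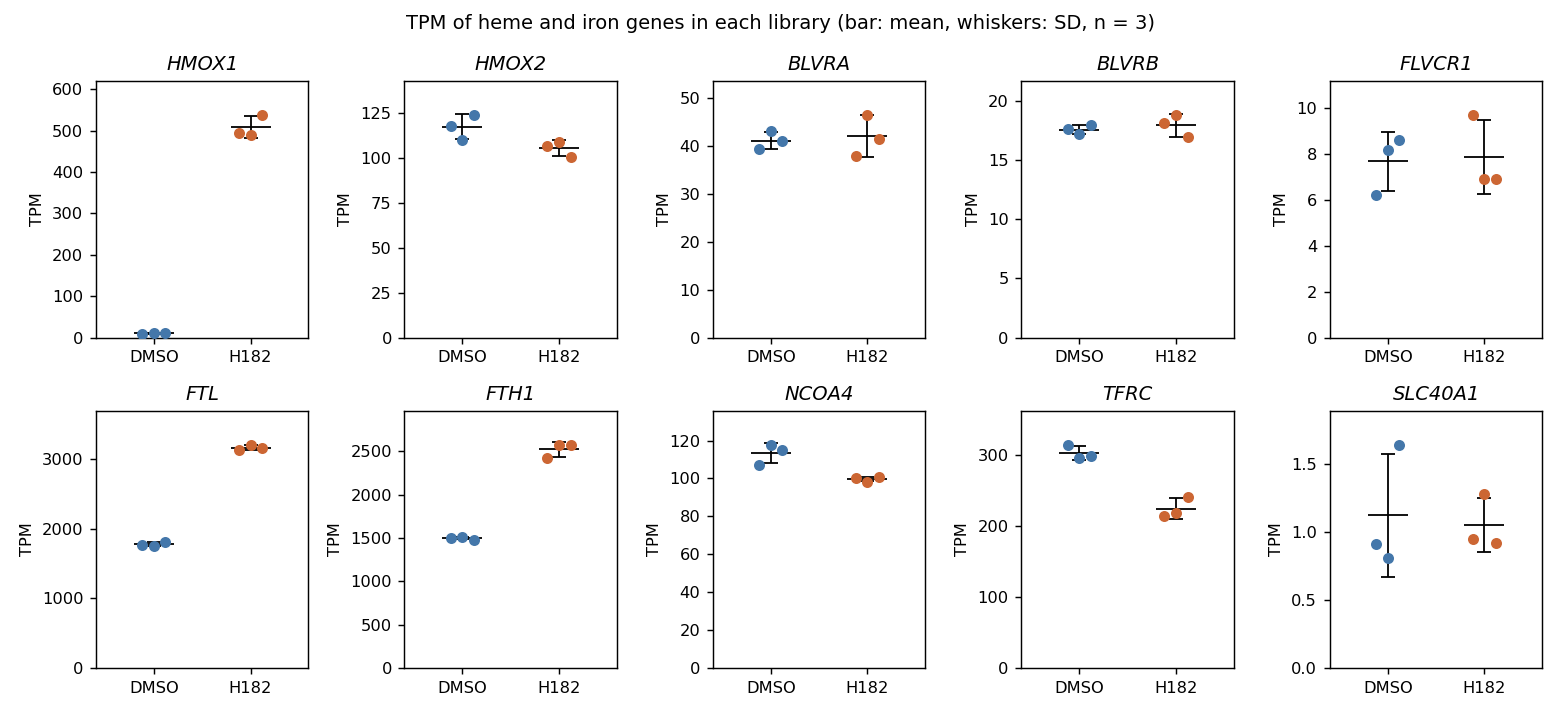
TPM (vertical axes, each starting at 0) of the 10 genes in the DMSO and H182 libraries. Points are libraries, bars the mean and whiskers the SD (n = 3 each). HMOX1, FTL and FTH1 lie higher in every H182 library, TFRC, NCOA4 and HMOX2 lie lower, and the other 4 genes overlap.

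HMOX1 (ENSG00000100292.16, GRCh38, chromosome 22, 35380361 to 35394214, plus strand, 5 exons) was at 10.04, 11 and 11.24 TPM in the DMSO libraries and at 495.03, 489.57 and 538.61 TPM in the H182 libraries. The lowest H182 library lay far above the highest DMSO library, and the spread within each group was small beside the gap. It rose 47.2-fold, from 10.8 ± 0.635 to 508 ± 26.9 TPM (SD, n = 3 each). On the log2 scale the change was 5.44 (SE 0.059, limma adjusted p = 6.11e-12). By level the gene moved from rank 8429 to rank 272 of the 27451 gene rows.

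By size of change HMOX1 ranked 5 of 12294 tested genes. The named genes next above it were HSPA1A (6.66) and HSPA1B (6.12), inducible HSP70 chaperones whose reads cannot be cleanly divided, and DDIT4 (5.48), an inhibitor of mTORC1. Next below it were the orphan nuclear receptors NR4A1 (5.13) and NR4A2 (5.06) and the MAP kinase phosphatase DUSP1 (5.03). These values are log2 changes over the same 6 libraries, and DDIT4 was the nearest, 0.0404 above HMOX1. The 95% intervals of DDIT4 (5.35 to 5.60) and HMOX1 (5.30 to 5.57) overlapped, so their order is not resolved.

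HMOX2 (ENSG00000103415.11, chromosome 16, 4474690 to 4510347, plus strand, 6 exons) stood at 117.77, 109.8 and 123.94 TPM in DMSO and at 106.59, 108.69 and 100.2 TPM in H182. Each H182 library was below each DMSO library, by as little as the step from 109.8 to 108.69 TPM. The change of -0.15 on the log2 scale (95% interval -0.28 to -0.03) did not pass (limma adjusted p = 0.0725), nor did the -0.05 left by median-of-ratios scaling (interval -0.19 to 0.09). Without DMSO replicate 2 it did pass in TPM (-0.20, limma adjusted p = 0.0440). The gene overlaps NMRAL1 on the opposite strand, which was at 45.56 to 58.27 TPM. The library kit keeps strand, but whether the counting used it is not given in the sources.

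The make-up of heme oxygenase mRNA differed between the groups. HMOX1 gave 8.43 ± 0.633% of the summed TPM of both genes in DMSO and 82.8 ± 1.32% in H182, and the ratio of HMOX1 to HMOX2 went from 0.0920 ± 0.00756 to 4.84 ± 0.468. Such ratios within a library do not depend on how the library is scaled. The sum of both oxygenases went from 128 ± 7.19 to 613 ± 22.5 TPM, given as a description with no test.

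The reductases that act on the product of this reaction gave no call. BLVRA (ENSG00000106605.10, chromosome 7, 43758680 to 43807342, plus strand, 9 exons), which reduces biliverdin IX alpha, had 39.32, 43.03 and 40.96 TPM in the DMSO libraries and 37.83, 46.52 and 41.51 TPM in the H182 libraries. Both the lowest and the highest of its values were H182 libraries. BLVRB (ENSG00000090013.9, chromosome 19, 40447765 to 40465840, minus strand, 5 exons), which also works as a flavin reductase, had 17.57, 17.14 and 17.94 TPM in the DMSO libraries and 18.08, 18.82 and 16.89 TPM in the H182 libraries. Neither passed, with changes of 0.02 (95% interval -0.15 to 0.20, limma adjusted p = 0.847) and 0.03 (-0.14 to 0.19, adjusted p = 0.815) on the log2 scale. The upper ends of these intervals lie far below the change of HMOX1. With median-of-ratios scaling BLVRA and BLVRB each changed by 0.13 and did not pass (limma adjusted p = 0.312 and 0.302). Summed oxygenase TPM stood at 2.18 ± 0.154 times the summed reductase TPM in DMSO and at 10.3 ± 0.982 times in H182.

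**Figure D2:**
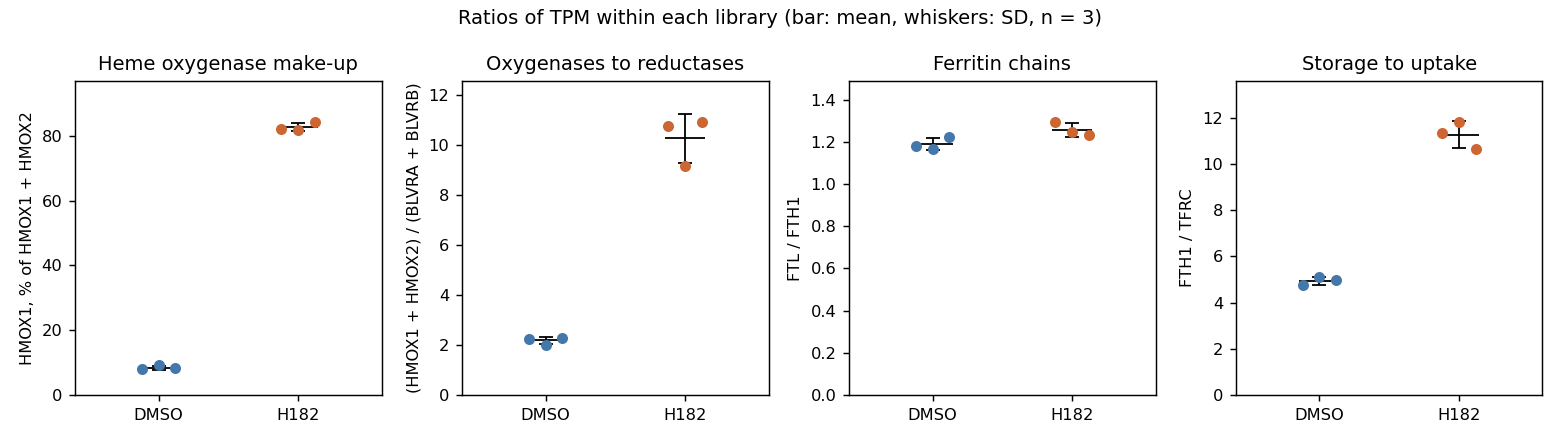
Ratios of TPM within each library for DMSO and H182: HMOX1 as a percentage of both heme oxygenases, oxygenases to biliverdin reductases, FTL to FTH1, and FTH1 to TFRC. Points are libraries, bars the mean and whiskers the SD (n = 3 each); all axes start at 0. The ferritin ratio moves little, from 1.19 to 1.26, while in the other 3 panels the groups lie far apart.

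Both ferritin chains rose. FTL, the light chain that helps iron to mineralize (ENSG00000087086.13, chromosome 19, 48965301 to 48966878, plus strand, 4 exons), had 1773.14, 1758.06 and 1808.15 TPM in the DMSO libraries and 3133.63, 3210.83 and 3163.73 TPM in the H182 libraries. FTH1, the heavy chain with the ferroxidase site (ENSG00000167996.15, chromosome 11, 61959718 to 61967660, minus strand, 4 exons), had 1501.39, 1508.49 and 1480.46 TPM in the DMSO libraries and 2422.6, 2575.19 and 2570.45 TPM in the H182 libraries. No library of one group reached into the other for either gene. FTL changed by 0.83 (SE 0.029, limma adjusted p = 3.34e-08) and FTH1 by 0.75 (SE 0.034, limma adjusted p = 2.62e-07) on the log2 scale. With median-of-ratios scaling the changes were 0.94 and 0.86.

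Ferritin mRNA was already abundant. FTL ranked 70 and FTH1 97 by mean TPM among all gene rows in DMSO, and 29 and 40 in H182. Their sum went from 3277 ± 11.2 to 5692 ± 121 TPM, or from 0.328 ± 0.00112% to 0.569 ± 0.0121% of all TPM. In TPM the gain in ferritin was thus larger than that in HMOX1, although its fold was far smaller. By fold, 1.62% of tested genes ranked above FTL and 1.89% above FTH1.

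The chains rose by nearly the same factor, 1.78-fold for FTL and 1.69-fold for FTH1. The ratio of FTL to FTH1 was 1.18, 1.17 and 1.22 in the DMSO libraries and 1.29, 1.25 and 1.23 in the H182 libraries. The groups did not overlap, but the highest DMSO library and the lowest H182 library lay close together. Ferritin genes have many processed pseudogenes, and none of the rows used here carried such a symbol (0 rows), so the share of reads that the counting may have moved between them was not tested.

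RefSeq windows of 300 bases around gene starts (250 before, 50 after, GRCh38.p14) were found for 8 of the 10 genes, in 10 windows, and not for HMOX1 and FTH1. They were searched on both strands for the antioxidant response element core TGACNNNGC, the AP-1 site TGANTCA, pairs of heat shock units in either order (GAANNTTC and TTCNNGAA) and the amino acid response element TGATGNAA. The core TGACNNNGC was in 1 of the 10 windows, of NCOA4, against 13.3% of all 35116 windows. TGANTCA was in a different window of NCOA4, against 7.71%. TTCNNGAA was in the FTL window and in the same NCOA4 window as TGANTCA, against 7.74%. GAANNTTC and TGATGNAA, in 6.77% and 3.62% of windows, matched none of the genes. Sequence more than 250 bases before a start was not searched, so a gene without a match here may hold one farther away. The 250 bases before the start of FTL are shown because this gene rose and its window holds 1 of these matches, at -245 relative to the start, in capitals; a match of letters is not a binding site.
FTL promoter, chr19:48965059-48965308, GRCh38.p14, plus strand: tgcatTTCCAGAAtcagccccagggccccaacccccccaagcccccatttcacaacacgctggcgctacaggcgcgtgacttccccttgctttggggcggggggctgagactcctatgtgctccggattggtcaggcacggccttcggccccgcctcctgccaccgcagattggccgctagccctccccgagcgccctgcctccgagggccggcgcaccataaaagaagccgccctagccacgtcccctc

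TFRC, the transferrin receptor through which most cells take up iron, fell. The gene (ENSG00000072274.12, chromosome 3, 196027183 to 196082189, minus strand, 19 exons) had 314.37, 295.24 and 298.77 TPM in the DMSO libraries and 213.95, 217.93 and 241.08 TPM in the H182 libraries. The H182 libraries all lay lower, and the gap between the groups was wider than the spread within either. TFRC went from 303 ± 10.2 to 224 ± 14.7 TPM, to 0.741 of its DMSO level, with a log2 change of -0.43 (SE 0.051, limma adjusted p = 0.000346). After median-of-ratios scaling the change was -0.33 (limma adjusted p = 0.00162). Only 4.45% of tested genes had a lower change than TFRC in TPM.

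Both ferritin chains thus rose while TFRC fell. FTH1 stood at 4.95 ± 0.167 times the TPM of TFRC in DMSO and at 11.3 ± 0.579 times in H182, and FTL at 5.88 ± 0.215 and 14.2 ± 0.906 times. As the sequences above show, the element lies in the 5′ untranslated region of FTL and in the 3′ untranslated region of TFRC. TPM measures mRNA level, and neither translation nor decay was measured. Whether the elements bear on these changes was not tested.

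NCOA4, the receptor that delivers ferritin to autophagosomes, showed a small fall that depended on scaling. The gene (ENSG00000266412.5, chromosome 10, 46005088 to 46030714, minus strand, 12 exons) had 107.3, 117.78 and 115.04 TPM in the DMSO libraries and 100.37, 98.32 and 100.55 TPM in the H182 libraries. All H182 libraries were lower, with the nearest values at 107.3 and 100.55 TPM. The log2 change of -0.18 (SE 0.047) passed in TPM (limma adjusted p = 0.0217), but the -0.08 seen with median-of-ratios scaling did not (limma adjusted p = 0.285). In TPM the call was also lost when DMSO replicate 2 (limma adjusted p = 0.0834), DMSO replicate 3 (0.0687) or H182 replicate 2 (0.0737) was left out, and when the variance was modelled without a trend (0.0676).

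The exporters gave no call. SLC40A1 (ENSG00000138449.10, chromosome 2, 189560579 to 189583758, minus strand, 8 exons) had 0.91, 0.81 and 1.64 TPM in the DMSO libraries and 0.95, 1.28 and 0.92 TPM in the H182 libraries, so its mean of 1.09 TPM over all libraries barely met the filter. DMSO replicate 3 stood apart from the other DMSO libraries, and the groups overlapped. The interval of its change was wide, -0.47 to 0.40 around -0.03 on the log2 scale (limma adjusted p = 0.920). FLVCR1 (ENSG00000162769.12, chromosome 1, 212858255 to 212899363, plus strand, 10 exons) had 6.22, 8.19 and 8.64 TPM in the DMSO libraries and 9.73, 6.93 and 6.93 TPM in the H182 libraries. Its highest value and its lowest value were in different groups, but the ranges overlapped, and the change was 0.03 (-0.32 to 0.37, limma adjusted p = 0.920). Both intervals are on the log2(TPM + 1) scale, which understates the change of a gene as low as SLC40A1, so they do not bound its fold change in TPM. With median-of-ratios scaling SLC40A1 changed by 0.02 and FLVCR1 by 0.12, and neither passed.

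**Figure D3:**
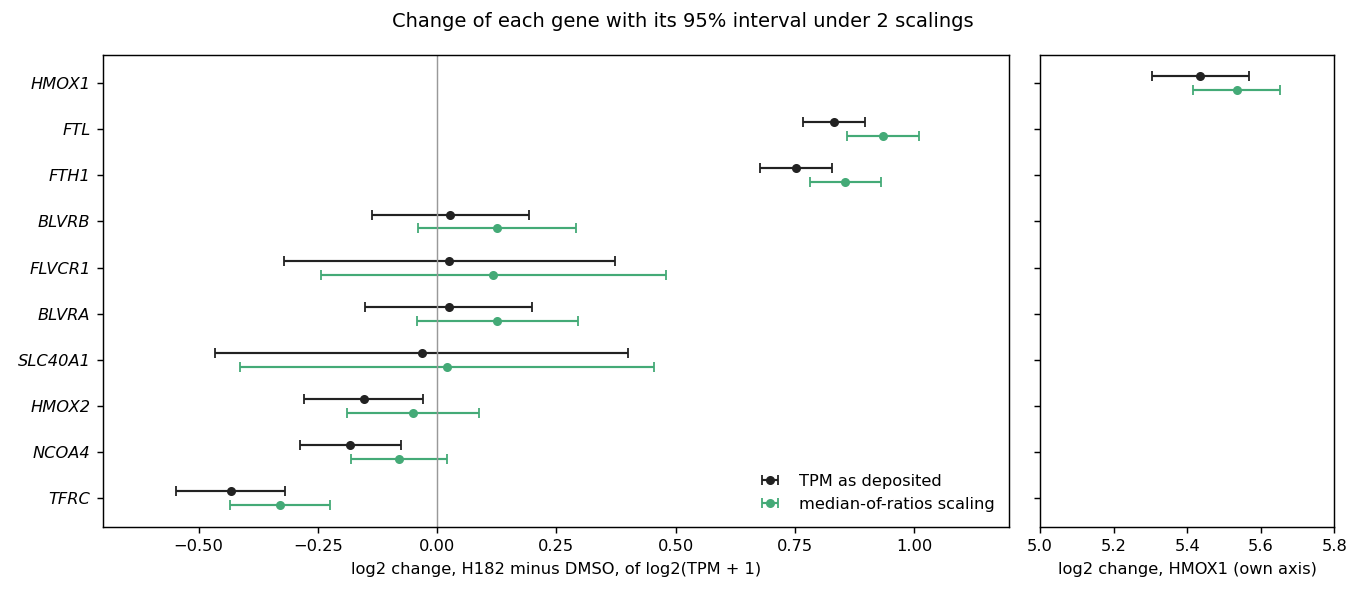
Change of each gene (horizontal axis, H182 minus DMSO of log2(TPM + 1)) with its 95% limma interval, in TPM as deposited and after median-of-ratios scaling, n = 3 each. HMOX1 has its own axis on the right, around 5.44. FTL, FTH1 and TFRC stay clear of 0 under both scalings, and the interval of NCOA4 reaches 0 under the second.

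In order of level, the DMSO libraries had FTL first, then FTH1, TFRC, HMOX2, NCOA4, BLVRA, BLVRB, HMOX1, FLVCR1 and SLC40A1. Of these neighbours only HMOX2 (109.8 to 123.94 TPM) and NCOA4 (107.3 to 117.78 TPM) overlapped in DMSO. In H182 HMOX1 stood in the third place, above TFRC, and the order of the other genes was the same. HMOX2 and NCOA4 overlapped there too.

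Other genes of heme and iron metabolism were followed in 5 lists. Of 8 genes of heme synthesis, none rose and 2 fell in TPM, a share near the 18.7% of all tested genes that fell, with a median change of -0.15 beside -0.09 for all tested genes; none was called in either direction with median-of-ratios scaling (median -0.05). ALAS1, the first and rate-limiting enzyme outside erythroid cells, fell from 47.8 ± 1.51 to 42.0 ± 2.01 TPM (-0.18, limma adjusted p = 0.0468). Of 11 genes of heme transport and electron supply 9 were tested, none rose, and only PGRMC2, a heme-binding membrane protein, fell in TPM (-0.26, limma adjusted p = 0.0125), which median-of-ratios scaling did not call (-0.16). POR, the reductase that feeds electrons to both heme oxygenases, had 26.9 ± 2.89 TPM (DMSO) and 23.8 ± 2.42 TPM (H182) and did not pass.

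Of 23 genes of iron uptake, chaperoning and regulation 16 were tested, none rose and 7 fell in TPM, where 18.7% of all tested genes fell. With median-of-ratios scaling 2 fell, where 6.78% of all tested genes did. The median change was -0.15 in TPM beside -0.09 for all tested genes, and -0.05 beside 0.00 with that scaling. The lowest p-values were those of the cytosolic iron chaperones PCBP2 (-0.17, limma adjusted p = 0.00498) and PCBP1 (-0.18, limma adjusted p = 0.00625), neither called with median-of-ratios scaling (-0.06 and -0.07). STEAP3, the endosomal reductase of transferrin-bound iron, fell from 45.7 ± 1.22 to 37.4 ± 1.81 TPM (-0.28, limma adjusted p = 0.00738), and also with median-of-ratios scaling (-0.18, limma adjusted p = 0.0407). SLC11A2, the ferrous iron transporter DMT1 that works after STEAP3 in the endosome, was singled out after its values were seen. It had 17.83, 15.06 and 18.18 TPM in the DMSO libraries and 11.42, 11.66 and 13.10 TPM in the H182 libraries, with no overlap. Its change was -0.46 in TPM (limma adjusted p = 0.00817) and -0.37 with median-of-ratios scaling (limma adjusted p = 0.0312). IREB2 (-0.33, limma adjusted p = 0.0118), ACO1 (-0.18, limma adjusted p = 0.0399) and SLC25A37 (-0.17, limma adjusted p = 0.0486) were also called lower in TPM. None of them was called with median-of-ratios scaling (-0.23, -0.07 and -0.06). The remaining 9 tested genes of the list were not called in TPM. Among them were the zinc and iron transporter SLC39A14 (0.08), HFE (-0.07), which binds the transferrin receptor, and the lysosomal channel MCOLN1 (-0.02). The best hairpin match in a 3′ untranslated region of SLC11A2 had 4 of the 5 pairs, so the search did not count it. The search is of letters only, and does not tell whether a site, counted or not, is a working element.

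Of 20 genes of iron-sulfur cluster assembly, none rose and 4 fell in TPM, a share near the 18.7% of all tested genes. None was called after median-of-ratios scaling. The median in TPM, -0.09, was that of all tested genes. The lowest p-values were those of MMS19, which hands clusters to DNA repair enzymes (-0.26, limma adjusted p = 0.0102), the cysteine desulfurase NFS1 (-0.27, limma adjusted p = 0.0174) and the mitochondrial carrier GLRX5 (-0.20, limma adjusted p = 0.0356).

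Of 8 transcription factor genes known to act on HMOX1 and ferritin genes, 4 rose and 1 fell in TPM, where 5.30% of all tested genes rose and 18.7% fell. After median-of-ratios scaling 4 rose and none fell, where 7.88% and 6.78% of all tested genes did. Their median change was 0.26 in TPM. The small MAF genes, whose proteins pair with NRF2 or BACH1 on DNA, rose: MAFF from 32.2 ± 2.18 to 87.3 ± 2.33 TPM (1.41, limma adjusted p = 1.93e-07) and MAFK from 25.9 ± 1.07 to 49.3 ± 2.88 TPM (0.90, limma adjusted p = 9.83e-06). The others that rose were MAFG (0.55) and ATF4 (0.32, limma adjusted p = 0.000151). KEAP1 fell in TPM (-0.21) and was not called with median-of-ratios scaling (-0.11). NFE2L2, the gene of NRF2, was at 81.3 ± 2.41 TPM (DMSO) and 88.6 ± 9.10 TPM (H182). BACH1 was at 17.7 ± 2.18 TPM (DMSO) and 20.3 ± 2.05 TPM (H182). Their TPM changes of 0.12 and 0.19 did not pass (limma adjusted p = 0.249 and 0.213). Median-of-ratios scaling gave 0.22 for NFE2L2, just short of a call at the 0.05 threshold (limma adjusted p = 0.0506). It gave 0.29 for BACH1, which did not pass either (limma adjusted p = 0.0947). The amount and activity of the proteins of these genes were not measured, and the mRNA level alone does not give them.

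**Figure D4:**
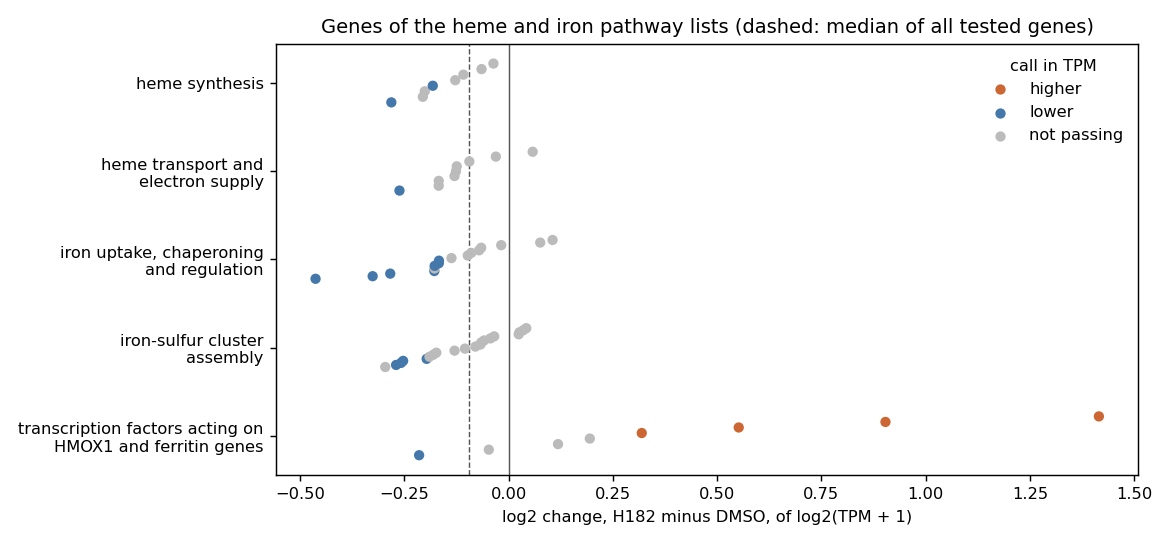
Log2 change (H182 minus DMSO of log2(TPM + 1), n = 3 each) of the tested genes of 5 lists, 1 point per gene, coloured by its limma call in TPM. The solid line is 0 and the dashed line the median of all tested genes, -0.09. The first 4 lists hold no gene called higher, and the transcription factor list holds 4.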

How the data were processed

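The 6 libraries were analysed, 3 per group, grouped by the treatment given in the labels. TPM values were deposited by the authors, rounded to 2 decimals, with 1 column per library. The build GRCh38, RSEM 1.2.25 and STAR 2.5.0 are named, per the submitters' processing notes; the annotation and strand setting are not given in the sources used here. Of 27567 rows, 92 spike-in rows and 24 duplicate Y-chromosome rows were left out. Depth cannot be read from TPM, so no counting interval is given. All 10 members matched GENCODE 29 by gene identifier, 8 of them with the same version.

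H182 and DMSO were compared with limma 3.58.1 in R 4.3.3 on log2(TPM + 1), a pseudocount of 1, which understates the change of low genes, for genes whose mean reached 1 TPM (moderated with a mean-variance trend, two-sided, Benjamini-Hochberg over 12294 genes). Errors are SDs unless called SE. An exact permutation test (two-sided, 3 against 3) cannot go below p = 0.1, which it gave for each gene without overlap. The fit was tested on simulated data with known changes.

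The members and the lists were chosen with earlier results of these data known. All members are named; of each list, up to 3 passing genes with the lowest p, and around HMOX1 the 3 genes next above and below by change. A gene so chosen is not reported here. Other list genes named were chosen after their values were seen. Alternatives changed the scaling, filter, pseudocount, threshold, variance trend and library weights, added a replicate block, or left out each library in turn. Same-numbered libraries were not paired by the labels. Figures were drawn with matplotlib 3.10.9.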

Additional observations from a re-analysis of the deposited data

How the results depend on the processing

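Under all 17 alternatives HMOX1 (5.39 to 5.55), FTL (0.73 to 0.94), FTH1 (0.66 to 0.86) and TFRC (-0.49 to -0.33) kept direction and call, and 3 members were called higher. With median-of-ratios scaling 833 genes were lower, with quantile normalization 1261, with totals taken without HSPA1A, HSPA1B and DNAJB1 1497, and at a threshold of 0.01 998. In these 4 settings, and without the mean-variance trend, 1 member was called lower, and NCOA4, at -0.0794, -0.0936, -0.14, -0.18 and -0.18 in the order of scaling, quantile, totals, threshold and trend, did not pass. Changes of genes without a call turned sign: SLC40A1 was 0.0209 with median-of-ratios scaling and 0.0117 with array weights, and FLVCR1 -0.0126 with array weights.

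Counts of list genes called lower moved as follows. For heme synthesis it was 1 without a filter, with quantile normalization, with those totals, without the trend and at 0.01, and 0 with median-of-ratios scaling. For heme transport it was 0 with median-of-ratios scaling, quantile normalization, no trend and 0.01, and 2 with array weights. For iron uptake it was 2 with median-of-ratios scaling, 3 without the trend and 4 at 0.01. For iron-sulfur assembly it was 2 without a filter, with those totals and without the trend, and 0 with median-of-ratios scaling, quantile normalization and 0.01. For the transcription factors it was 0 with median-of-ratios scaling, quantile normalization, no trend and 0.01. The cause was not tested.

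Leaving out 1 library at a time gave 1396 to 2205 genes lower, 1 to 2 members lower, 1 to 2 heme synthesis genes, 1 to 3 iron-sulfur genes and 0 to 1 transcription factors lower. It gave changes of -0.20 to -0.11 for HMOX2, -0.0505 to 0.0952 for BLVRA, -0.00559 to 0.0683 for BLVRB, -0.14 to 0.14 for SLC40A1, -0.12 to 0.11 for FLVCR1 and -0.22 to -0.15 for NCOA4. The gene set was kept as with all libraries. A filter at 5 TPM left out SLC40A1. With the replicate block 625 genes were higher and 2059 lower, 3 members higher and 2 lower, and heme synthesis had 1 lower gene; it changed no member's call. Deviations of same-numbered libraries correlated at -0.01, 0.00 and -0.04, so the numbers gave no sign of pairing. Depth is unknown, and the 95% intervals of SLC40A1 and FLVCR1 were the widest of the 10 members in TPM.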

Other observations

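The hairpin letters with 5 pairs were also looked up in all tested genes, a choice made after the values of the members were seen. Of 25 tested genes with a match in a 5′ untranslated region, 2 were higher in TPM (8.0%), which were FTL and FTH1 themselves, and 5 were lower (20.0%), with a median change of -0.08. Of 98 tested genes with a match in a 3′ untranslated region, 8 were higher (8.16%) and 19 lower (19.4%), TFRC among them, with a median of -0.10. Over all tested genes 5.30% were higher and 18.7% lower, with a median of -0.09. With median-of-ratios scaling 3 of the 25 were higher and 2 lower, and 12 of the 98 were higher and 7 lower, where 7.88% of all tested genes were higher and 6.78% lower. In the 5′ set FTL and FTH1, whose values were already known, were joined among the higher genes only by KNTC1, with median-of-ratios scaling. The share called higher in that set therefore says nothing about hairpin genes beyond these members. In the 3′ set the share called higher was above that of all tested genes under both scalings, and no test of that difference was made. The share called lower was near that of all tested genes in TPM (19.4% beside 18.7%) and with median-of-ratios scaling (7.14% beside 6.78%).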
